A study of Mus musculus with 18 samples.

Results

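The cytosolic ribosome of a mouse cell is built from ribosomal RNA and a fixed set of ribosomal proteins, and its protein genes were followed here in regulatory T cells (Tregs) with and without CD25, the alpha chain of the interleukin-2 receptor. Members were the rows of the count table whose Ensembl identifier maps to a symbol of the form Rps or Rpl with a number and at most 1 further letter, plus Rplp0, Rplp1, Rplp2 and Rpsa. This gave 83 of the 50600 rows, 32 with small-subunit names and 51 with large-subunit names. Pseudogenes carrying a -ps suffix and the Rps6k kinases do not match the rule. The annotation lists 80 of the members as protein coding and the other three, Rpl6l, Rpl32l and Rps4l, as processed pseudogenes.

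RNA-seq was carried out on FACS-purified Foxp3+ Tregs of C57BL/6 mice, 1 mouse per sample. Thymic CD25 KO Tregs came from 5 "cured" CD25 flox/Foxp3-YFP/Cre mice, in which Cre is expressed from the Foxp3 locus and which had been given WT splenocytes as neonates, so that donor Tregs were present in these hosts. Their controls were 5 Foxp3/RFP reporter mice, and both groups were 3 to 4 weeks of age. Splenic CD25 KO Tregs came from 4 CD25flox/Foxp3eGFP-Cre-ERT2/R26Y mice and were compared with those of 4 reporter controls. Tamoxifen was given at 70 mg/kg daily for 5 days, begun at 7 to 10 weeks of age, and cells were collected 10 to 14 days after induction. Tissue, mouse model, age, tamoxifen and the date in the column names, whose meaning is not stated, change together between thymus and spleen and cannot be told apart, and the thymic WT and KO mice also carry different Foxp3 reporter alleles.

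Thymic libraries held 17239774 to 23993674 counts and splenic libraries 25258341 to 32639570. Il2ra, the targeted gene, was at 524 to 682 CPM (counts scaled to the effective size of the library) in thymic WT mice and at 95.8 to 280 CPM in thymic KO mice, with 488 to 538 CPM in splenic WT and 168 to 208 CPM in splenic KO mice, so that it was lower in every KO mouse. The sum of 6 Treg markers ranged from 2896 to 4107 CPM over all libraries, while 5 B cell markers summed to at most 23.9 CPM, 5 myeloid markers to at most 22.3 CPM, 4 erythroid markers to at most 39.8 CPM and 4 thymic epithelium markers to at most 12.6 CPM. In splenic KO mice the 3 NK cell markers summed to 3.15 to 5.88 CPM, against 0.366 to 2.71 CPM in splenic WT mice. The myeloid marker Lyz2 was at 11.5 to 15.1 CPM in splenic KO and 4.41 to 9.48 CPM in splenic WT mice (adjusted p = 0.00132, edgeR), and the B cell marker Pax5 at 2.69 to 3.57 and 1.02 to 2.17 CPM (adjusted p = 0.00352, edgeR). The part of these cells in the splenic values was not tested. Markers of cycling cells stood out in thymic KO mice 2 and 4, which had 999 and 789 CPM against 152 to 222 CPM in the other three KO mice and 480 to 1165 CPM in thymic WT mice.

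The small subunit of the ribosome decodes mRNA and the large subunit forms peptide bonds, with the acidic stalk of Rplp0, Rplp1 and Rplp2 recruiting the translation factors. Ribosomal protein mRNAs belong to the class with a 5′ terminal oligopyrimidine (TOP) tract, a run of C and T at the very start of the transcript through which the kinase mTORC1 and the RNA-binding protein Larp1 control their translation. In T cells, interleukin-2 signalling is known to feed into mTORC1 and growth, and translation of TOP mRNAs is not read by RNA-seq, which measures transcript levels.

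Starts of member genes are shown because a TOP tract lies at the start of a transcript. RefSeq promoter windows of 300 bases on GRCm38.p6 were found for 61 of the 83 members, some with several starts, giving 73 windows. A run of at least 6 pyrimidines touching bases 1 to 5 of the transcript was present in 27 member windows (37%) and in 12.8% of all 32851 windows. A run of at least 8 was present in 28.8% and 5.95%. The following 30-base windows were picked among those with a run of at least 6. They begin 10 bases before the annotated start, are written 5′ to 3′ on the strand of the gene, and carry the run in capitals. In those of Rpl12 and Rpl13a the run begins after base 1.
Rpl12, chr2:32961702-32961731, plus strand: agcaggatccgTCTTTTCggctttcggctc
Rps18, chr17:33955646-33955675, minus strand: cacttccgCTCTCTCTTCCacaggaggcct
Rps6, chr4:86857348-86857377, minus strand: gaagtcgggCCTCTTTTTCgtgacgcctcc
Rplp2, chr7:141447641-141447670, plus strand: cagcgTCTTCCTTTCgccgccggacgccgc
Rpl35a, chr16:33056472-33056501, plus strand: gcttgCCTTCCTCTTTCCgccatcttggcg
Rpl13a, chr7:45128726-45128755, minus strand: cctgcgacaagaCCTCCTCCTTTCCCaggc
The hexamer CTTTCC, searched on the gene's strand from 20 bases before to 30 bases after the start, was in 16.4% of member windows and 2.4% of all windows. CCGGAAG, the core letters bound by ETS factors, was found on either strand over the 300 bases in 35.6% of member windows and 8.86% of all windows. TATAAA went the other way, with 9.59% and 13.6%. These are matches of letters in annotated windows.

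Levels of the members were compared per length, as CPM per kilobase of the annotated main transcript averaged over the 18 mice. Of 81 members that passed the filter on low counts in every comparison, Rps27 was highest at 2088 CPM per kilobase, followed by Rps15 at 1271, Rplp1 at 1229, Rps15a at 1165 and Rps14 at 1159. When levels were divided by coding length instead, Rps27 ranked 2 and Rplp1 ranked 7, behind Rpl41, which encodes the shortest of the ribosomal proteins and ranked 20 by the full transcript. The lowest levels among tested members were those of Rpl24 at 19.7 CPM per kilobase and of Rpl32l, Rpl6l, Rps4l and Rpl39l, between 1.1 and 1.5 CPM per kilobase. Exons annotated to other genes, on either strand, also cover 47% of the exonic bases of Rpl24 and 35.4% of those of Rpl13a. The part of this overlap in their counts was not tested. Members were short, with a median transcript of 681 bases against 2229 bases over all genes tested, and spread over 19 chromosomes, and 29 of them hold a small nucleolar RNA gene within their span.

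Duplicate copies of ribosomal proteins used in other tissues were nearly silent. Rpl10l, the testis copy of Rpl10, had 0 to 7 counts per library and was at 0 in all splenic mice, which allows up to 3 counts, or 0.0919 to 0.119 CPM, in each. Rpl3l, the copy used in striated muscle, had 1 to 13 counts. These 2 members failed the filter and were not tested. Rpl39l, another testis copy, had 5 to 28 counts. Rps27l, a p53-inducible relative of Rps27, was the exception among these copies at 18 to 29.9 CPM, far below the 460 to 1088 CPM of Rps27.

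The first comparison asked how the members differed in splenic Tregs after loss of CD25. Of 81 members tested, 31 were lower in CD25 KO and none was higher at FDR < 0.01, where p came from the quasi-likelihood test of edgeR and was adjusted by Benjamini-Hochberg over 17463 genes. Over all genes, 3.55% were called lower and 5.9% higher (9.45% in either direction), against 38.3% of the members called lower. The median log2 fold change of the members was -0.26, or -16.6%, beside -0.01 over all genes, and 78 of 81 had a negative fold change, as did 51.2% of all genes. None of the members had an unadjusted p under 0.05 in the direction of higher expression, and DESeq2 called 50 lower and none higher. Both subunits took part, with 14 of 32 small-subunit and 17 of 49 large-subunit members called lower and medians of -0.28 and -0.26.

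Rpl12, which sits at the base of the stalk, had the largest called decrease. It was at 1175, 1232, 1421 and 1353 CPM in splenic WT mice 1 to 4 and at 998, 1027, 849 and 991 CPM in KO mice 1 to 4. Every KO mouse lay below every WT mouse, and the log2 fold change was -0.42 ± 0.07 (SE, n = 4 per group, adjusted p = 0.000712, edgeR). Rpl10a, at the side of the large subunit where tRNA leaves, was at 279, 311, 331 and 316 CPM in WT and at 237, 240, 216 and 236 CPM in the KO mice, again without overlap, and its log2 fold change was -0.41 ± 0.06 (adjusted p = 0.000133, edgeR). Rps19, the small-subunit gene most often altered in Diamond-Blackfan anemia, fell from 602 ± 58.8 to 457 ± 35.1 CPM (SD, n = 4), a log2 fold change of -0.40. Rps18, in the head of the small subunit, and Rpl13 completed the 5 largest decreases, at -0.39 and -0.38. These 5 genes passed the threshold in 16 alternatives recomputed gene by gene, among them leaving out each mouse in turn. However, no member was called when the test asked for a change beyond 1.2-fold, where 578 of 17463 genes were. At that setting 12 members had an unadjusted p under 0.05.

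Among 20 members chosen for their roles, 7 (35%) were lower in splenic KO mice and none was higher. That share is near the 38.3% of all members called lower. Over all genes 3.55% were called lower and 5.9% higher. Rplp0, the scaffold of the stalk, fell by 0.28 on the log2 scale from 1284 ± 93.5 to 1059 ± 63.3 CPM. Rps6, the substrate of S6 kinase, fell by 0.29. Rpl5, which with Rpl11 and 5S rRNA forms the particle that binds Mdm2, fell by 0.33, whereas Rpl11 had a value of -0.25 with an adjusted p of 0.0181 (edgeR). Rpl3, close to the peptidyl transferase center, Rps4x, encoded on the X chromosome, and Rpl36a were also called lower, at -0.29, -0.29 and -0.37. The other 13 gave log2 fold changes between -0.13 for Rps27 and -0.26 for Rplp2, of which Rplp1 at -0.21 and Rpsa, also known as the laminin receptor, at -0.20 had adjusted p of 0.0576 and 0.071 (edgeR). Rpl22, needed for the development of alpha-beta T cells, had a value of -0.15 ± 0.07, with KO mice 1 to 4 at 204, 245, 191 and 230 CPM overlapping WT mice at 226, 237, 261 and 244 CPM.

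Members past and short of the threshold differed little in size. Rpl36, the last called, had a log2 fold change of -0.30 and an adjusted p of 0.00953, and Rps28, the first not called, had -0.30 and 0.0101. In all 8 members lay at adjusted p between 0.01 and 0.015, and 60 members were lower at FDR < 0.05, where 7.03% of all genes were, and none was higher, where 10.2% were. Among the 77 members with a mean of at least 100 counts, log2 fold changes had an SD of 0.0805. The median SE of 1 such value was 0.0682. That SE includes variation between mice that the members share, which adds little to the spread among members. Comparing these values therefore cannot tell whether the members changed alike. Rps27l lay apart with +0.15 ± 0.09 (adjusted p = 0.296, edgeR), at 18, 20.9, 24.2 and 21.6 CPM in WT mice and 20.9, 25.3, 22.8 and 24.4 CPM in KO mice, which overlap.

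**Figure D1:**
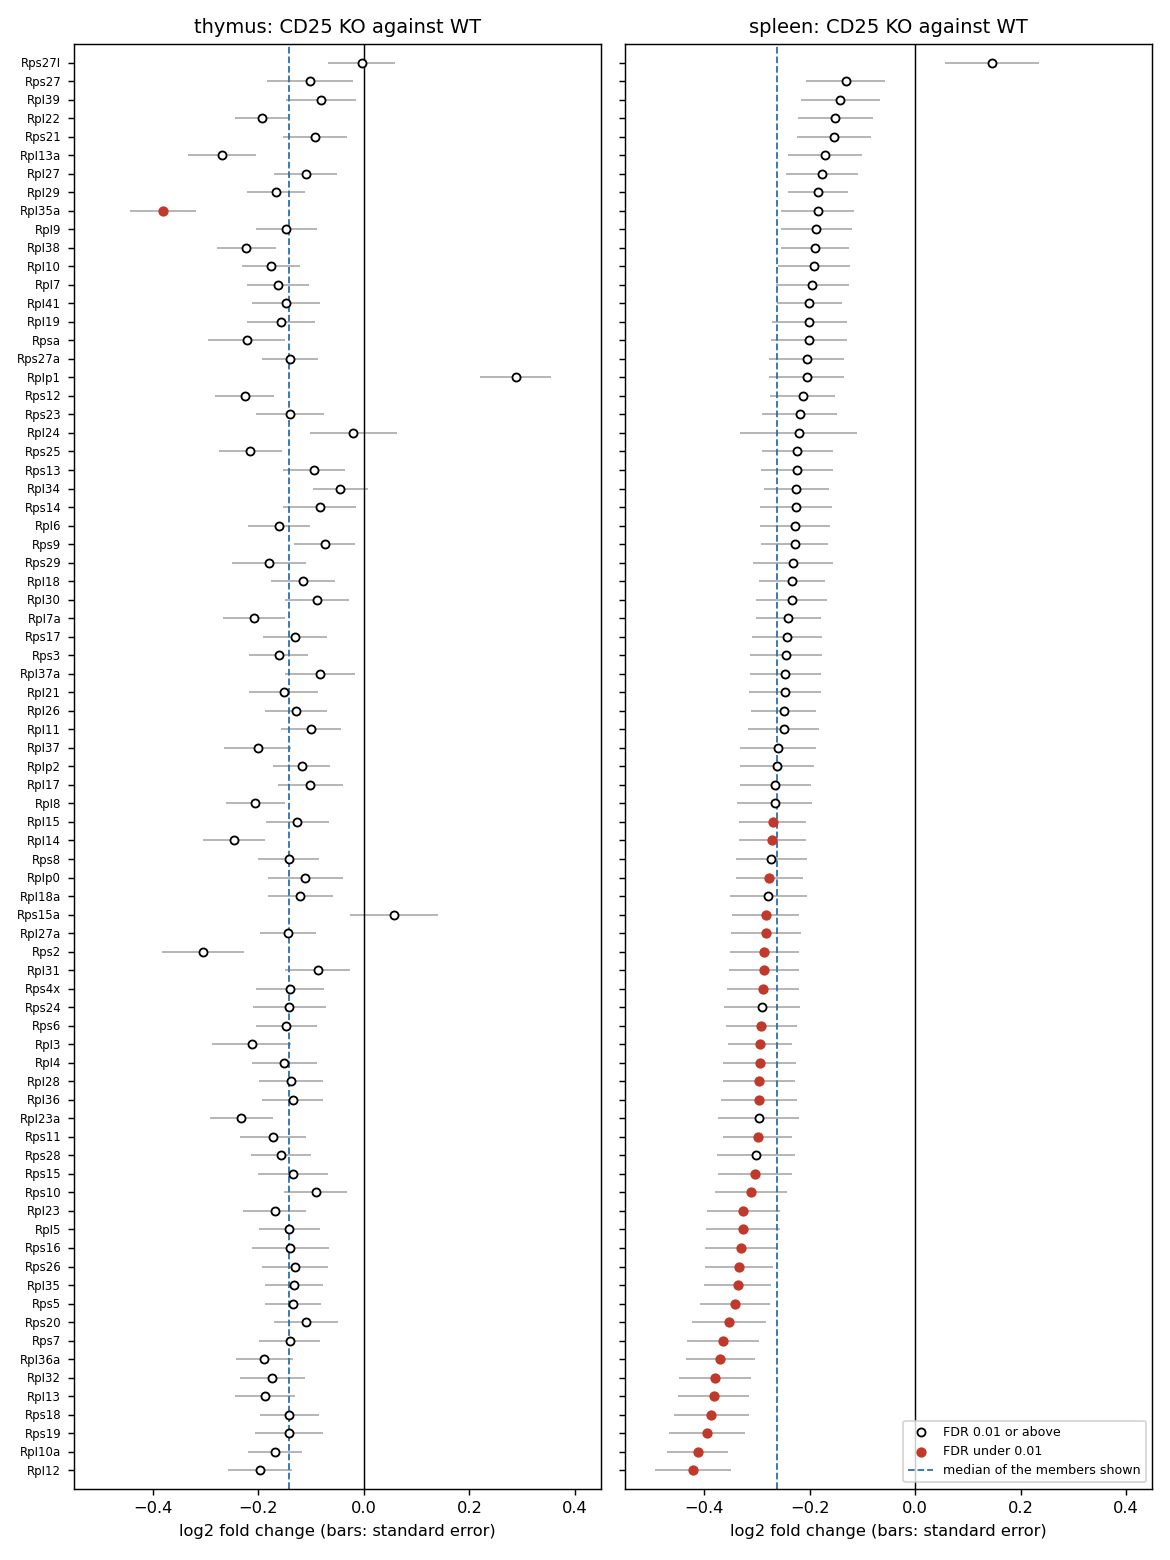
Log2 fold change of CD25 KO against WT (x axis) for the 77 members with a mean of at least 100 counts (y axis, ordered by the splenic value), with the thymus on the left and the spleen on the right. Bars are standard errors, filled points have FDR under 0.01 and the dashed line is the median of the members shown. In the spleen 76 of the 77 lie below 0 and 31 are called lower, while in the thymus 75 lie below 0 and Rpl35a is the only one called.

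Together the members took 4.01, 4.15, 4.51 and 4.42% of all counts in splenic WT mice 1 to 4 and 3.78, 3.79, 3.37 and 3.71% in KO mice 1 to 4. The groups did not overlap, and the mean share was 4.27 ± 0.232% in WT and 3.66 ± 0.199% in KO (SD, n = 4). Counting error is small beside this, since the Wilson 95% interval of each share extends at most 0.00826 percentage points to either side. It covers counting error only. In bulk RNA, a lower share of cells with high levels and less transcript in every cell cannot be told apart. Single members followed the sum, as 49 of the 81 tested (60.5%) had every KO mouse below every WT mouse, where 9.21% of all genes did, and none had every KO mouse above, where 11.2% did. KO mouse 3 was lowest, with a median deviation of -0.42 (log2 CPM minus the mean of the WT mice) over the 77 well-counted members, against -0.18 to -0.23 in the other KO mice. Without this mouse 14 members were called lower and the median was -0.21. Fewer calls also remained without WT mouse 2, 3 or 4 (14, 11 and 9) or KO mouse 4 (20), while 51 were called without WT mouse 1. Over all genes 1651 were called with every mouse, 1559 without KO mouse 3 and 1155, 1099 and 1132 without WT mouse 2, 3 or 4. Without KO mouse 4 it was 1234, and without WT mouse 1 it was 1555.

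The members moved as a block between mice of the same group as well. In splenic WT mouse 1, 75 of 77 members were below the WT mean, and in WT mouse 3 only 1 was. In the thymus, 75 of 77 were below it in WT mouse 4 and 2 in WT mouse 2. The counts of called members are therefore counts over genes that vary together across mice and are not that many separate observations.

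**Figure D2:**
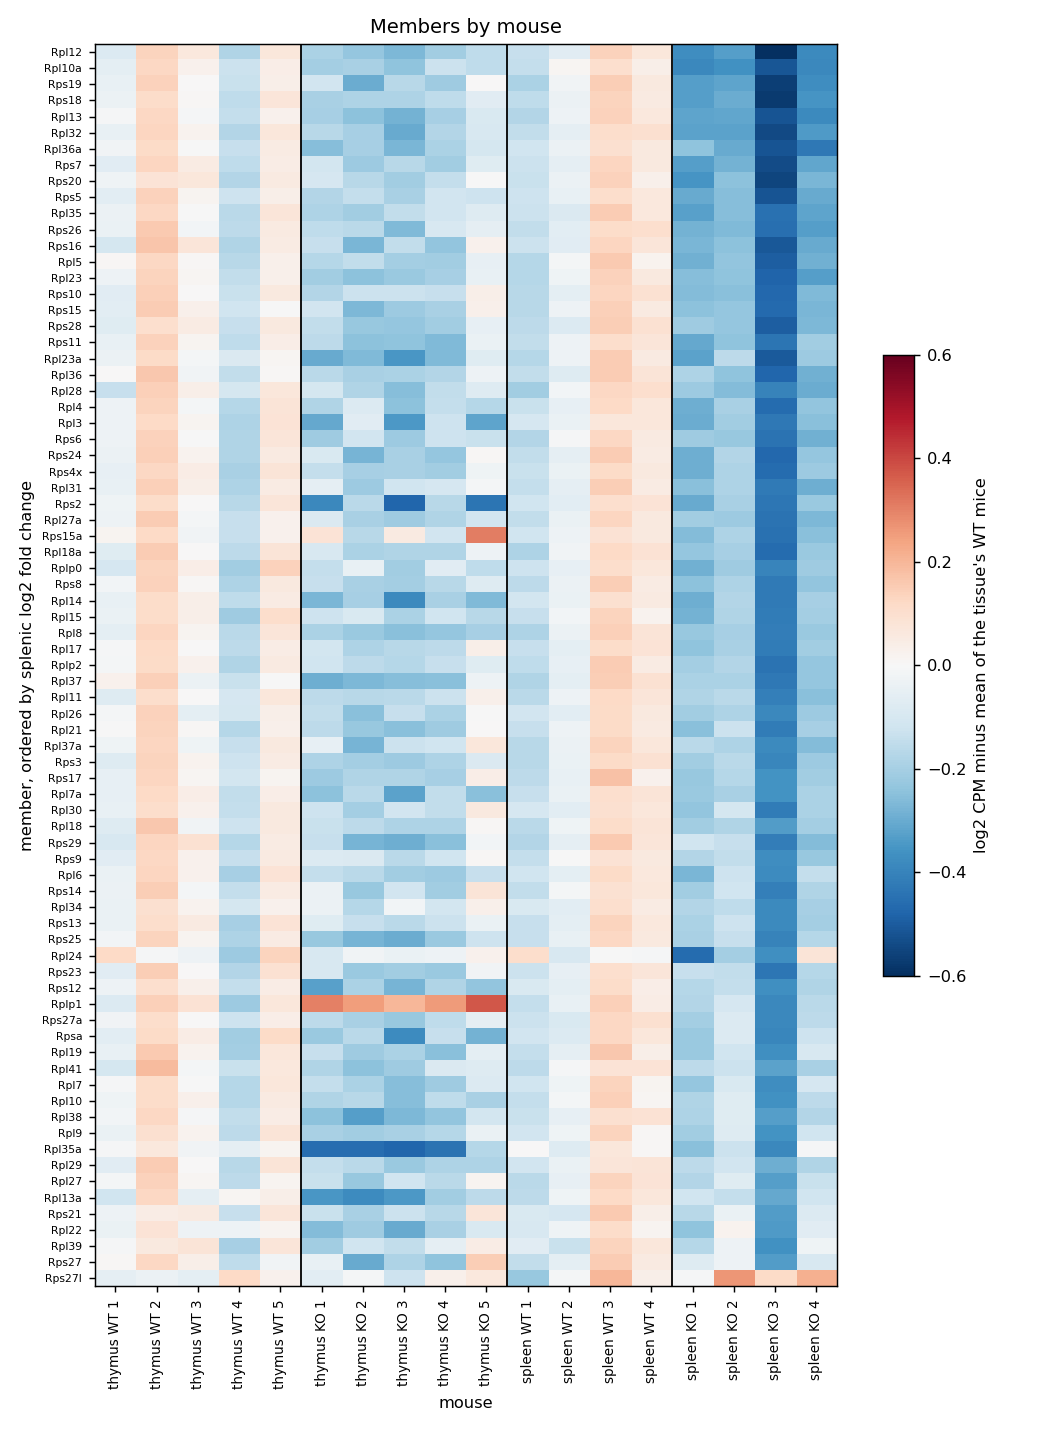
Each row is 1 of the 77 well-counted members, ordered by splenic log2 fold change, and each column is 1 mouse. Color gives log2 CPM minus the mean of the WT mice of the same tissue, from -0.6 (blue) to 0.6 (red), and vertical lines separate the 4 groups. Columns are nearly uniform, including those of WT mice, splenic KO mouse 3 is the bluest, and Rplp1 is the red row in the thymic KO columns.

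Library measures moved with the members. The noncoding row Gm26917 took 11.9 to 14.3% of counts in splenic WT and 9.38 to 10.9% in splenic KO mice, and the mean GC content of the counted genes, weighted by counts, was 52.1 to 52.7% against 51.3 to 52%. After correction for GC content 22 members were called lower in the spleen with a median of -0.23. Of all 17463 genes 1718 were then called, against 1651 without the correction. When Gm26917 was left out of the denominator, the difference in share between splenic KO and WT mice was -0.878 instead of -0.611 percentage points. The 6 markers of cycling cells summed to 148 to 165 CPM in WT and 255 to 353 CPM in KO, and 5 effector Treg markers (Klrg1, Icos, Cd44, Tigit, Prdm1) to 358 to 422 and 585 to 705 CPM. All 6 and 5 of these genes were called higher in the spleen. The part of these measures in the lower levels of the members was not tested.

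**Figure D3:**
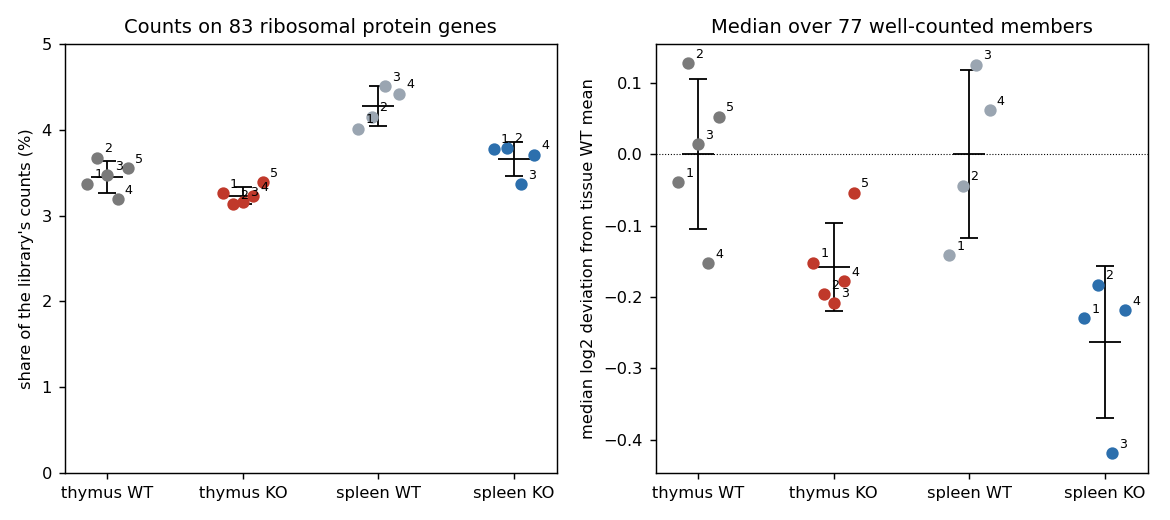
Left, share of each library's counts that fell on the 83 members (percent, axis from 0), and right, the median over 77 well-counted members of log2 CPM minus the mean of the WT mice of the tissue. Points are mice, labeled by replicate number, with the mean and SD of each group as bars. The splenic groups do not overlap, at 4.01 to 4.51% in WT and 3.37 to 3.79% in KO, while the thymic groups do, at 3.19 to 3.68% and 3.13 to 3.39%.

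In thymic Tregs the same comparison gave smaller values. One member, Rpl35a, was lower in CD25 KO and none was higher at FDR < 0.01 (edgeR, 81 members among 16986 genes tested), where 2.99% of all genes were called lower and 3.17% higher (6.16% in either direction). The members' 1.23% is below that background. The median log2 fold change of the members was -0.14, or -9.3%, beside -0.002 over all genes, and 77 of 81 were negative, as were 50.3% of all genes. At an unadjusted p under 0.05, 47 members were lower and 1 was higher, and DESeq2 called 11 lower and 1 higher. At FDR < 0.05, 19 members were lower and 1 was higher, where 10.9% and 12.3% of all genes were.

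Rpl35a, a large-subunit protein that is another Diamond-Blackfan anemia gene, was at 198, 207, 196, 191 and 201 CPM in thymic WT mice 1 to 5 and at 145, 145, 143, 146 and 176 CPM in KO mice 1 to 5. Every KO mouse lay below every WT mouse, with KO mouse 5 nearest to them, and the log2 fold change was -0.38 ± 0.06 (SE, n = 5 per group, adjusted p = 0.00266, edgeR). The adjusted p was 0.0104 without WT mouse 2 or WT mouse 5. In the spleen its value was -0.18 ± 0.07 (adjusted p = 0.0826, edgeR), and the difference between the tissues was not called (adjusted p = 0.144). The row shares a 75-base stretch with 15 other rows, which together held 2.91 to 4.46 CPM in thymic WT and 3.24 to 4.78 CPM in thymic KO mice. Rpl13a, known for its part in the GAIT complex that silences inflammatory mRNAs, and Rpl22 also had every thymic KO mouse below every WT mouse, at log2 fold changes of -0.27 and -0.19 with adjusted p of 0.013 and 0.0185 (edgeR). In all 6 members showed this separation, or 7.41% of those tested, against 9.17% of all genes, and 1 member lay above in every KO mouse, where 7.2% of all genes did. Both counts are near or below the background.

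The share of counts on the members was 3.37, 3.68, 3.47, 3.19 and 3.55% in thymic WT mice 1 to 5 and 3.26, 3.13, 3.16, 3.22 and 3.39% in KO mice 1 to 5. The groups overlapped through WT mouse 4 and KO mouse 5, with means of 3.45 ± 0.185% and 3.23 ± 0.102% (SD, n = 5). Gm26917 took 9.79 to 11.4% of counts in WT and 5.76 to 9.17% in KO mice, and count-weighted GC content was 51.5 to 52.2% and 49.9 to 51%, both without overlap. The difference in share, KO minus WT, was -0.219 percentage points, and -0.362 when Gm26917 was left out of the denominator, where the groups still overlapped. The median log2 fold change of the members was -0.08 after correction for GC content, when 64 of 81 were negative and Rpl11, Rpl24, Rpl32l, Rplp0, Rps14 and Rps15 were among those that had turned to values between 0.002 and 0.07. Without KO mouse 5, 5 members were called lower, and the median was -0.17. With KO mice 2 and 4 left out, the mice with high cycling markers, 4 were called lower and the median was -0.13. Over all genes 986 of 17211 were called without KO mouse 5 and 2008 of 17433 without KO mice 2 and 4. With every mouse 1047 of 16986 genes were called. The 5 effector Treg markers summed to 146 to 175 CPM in thymic WT and 101 to 158 CPM in thymic KO mice, with 4 of 5 called lower, and the 6 markers of double-positive and immature thymocytes to 40 to 172 and 45.6 to 98.2 CPM, with none of 5 tested called by edgeR or DESeq2 or at an unadjusted p under 0.05. The part of these measures in the thymic values was not tested.

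Rplp1, a stalk protein, was the member whose KO effect differed between the tissues. It was at 427, 499, 480, 389 and 473 CPM in thymic WT mice 1 to 5 and at 557, 537, 518, 538 and 585 CPM in KO mice 1 to 5, so that every KO mouse lay above every WT mouse. The log2 fold change was 0.29 ± 0.07 (SE, n = 5, adjusted p = 0.0124, edgeR), short of the threshold, and with correction for GC content it was 0.42 (adjusted p = 0.00426). With length correction it was 0.18 (adjusted p = 0.144, edgeR), and with both corrections 0.33 (adjusted p = 0.013). In the spleen the uncorrected value was -0.21 ± 0.07. The test of the difference of the CD25 KO effect, spleen minus thymus, in 1 fit of all 18 mice called Rplp1 at -0.48 ± 0.11 (adjusted p = 0.00511, edgeR). It was the only member called among 81, or 1.23%, where 6.98% of 18686 genes were called (2.49% lower and 4.5% higher). None was called higher by edgeR or DESeq2, with 1 at an unadjusted p under 0.05. With correction for transcript length the Rplp1 difference was -0.30 (adjusted p = 0.15), and it was not called without splenic WT mouse 3 or 4 or KO mouse 3. Its stalk partners gave -0.15 for Rplp0 and -0.13 for Rplp2, with adjusted p of 0.33 and 0.373 (edgeR).

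A row that shares sequence with Rplp1 also differed between the thymic groups. Gm11942, a processed pseudogene, had 1164 to 1606 counts in the thymic WT mice and 3 to 17 counts in the other 13 mice. In CPM it was at 54.8 to 68.2 in thymic WT, 0.135 to 0.85 in thymic KO, 0.197 to 0.642 in splenic WT and 0.152 to 0.607 in splenic KO mice. Its log2 fold change in the thymus was -6.97 ± 0.23 (adjusted p = 3.31e-09, edgeR) and in the spleen -0.21 ± 0.43 (adjusted p = 0.792). The thymic WT and KO mice are different reporter lines, so for this row, and for Rplp1, loss of CD25 and mouse line cannot be told apart. Gm10073, an annotated coding copy, had 58 to 73 counts in thymic WT and 11 to 22 counts in thymic KO mice. Both rows were singled out after their values had been seen. Of 627 rows that share at least one 75-base stretch with a member, 162 were tested in the thymus, and these 2 were the only ones called.

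When the counts of the rows sharing a 75-base stretch were added to their member, an alternative chosen after the data were seen, Rplp1 gave log2 fold changes of 0.10 in thymic mice (adjusted p = 0.305, edgeR) and -0.21 in splenic mice (adjusted p = 0.0564), and the difference between tissues was -0.29 (adjusted p = 0.0659). The summed level was 447 to 571 CPM in thymic WT and 520 to 586 CPM in thymic KO mice, which overlap. No member was then called for the difference, with 8 at an unadjusted p under 0.05, and 1 and 33 members were called lower in thymus and spleen. Over all genes 1302 of 18480 were called for the difference, 1051 of 16824 in thymus and 1658 of 17274 in spleen. How much of the Rplp1 difference lies in the division of reads between these rows was not tested beyond this sum.

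**Figure D4:**
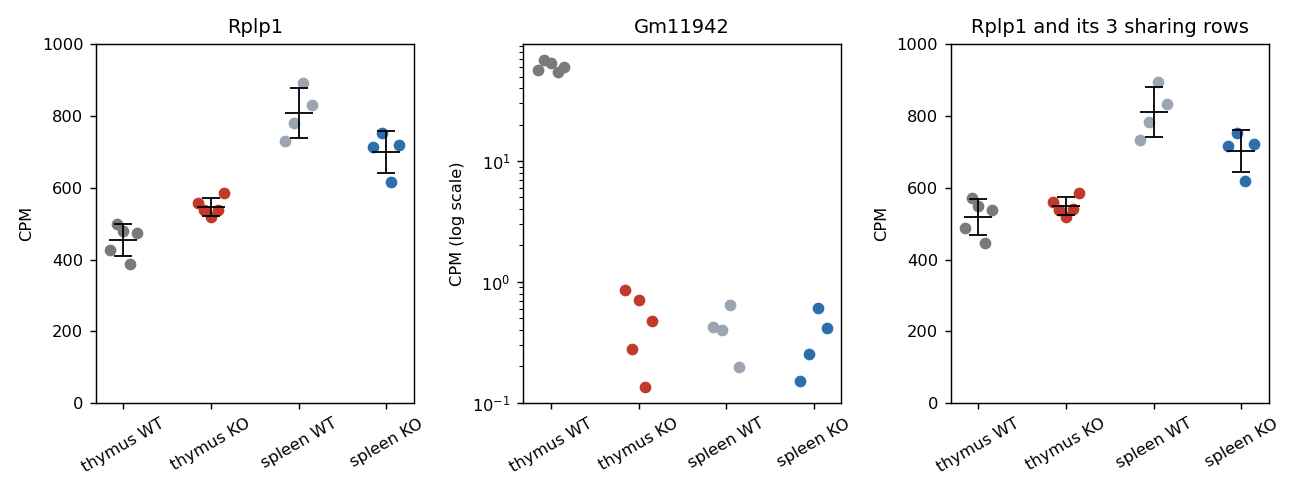
CPM of Rplp1 (left), of the pseudogene row Gm11942 (middle, log axis) and of Rplp1 summed with the 3 rows that share a 75-base stretch with it (right) in the 4 groups. Points are mice, and bars in the outer panels are mean and SD. Gm11942 is at 54.8 to 68.2 CPM in the 5 thymic WT mice and below 1 CPM in all others, and the thymic groups, separate for Rplp1 alone, overlap in the sum.

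For the remaining members the KO effects of the tissues could not be separated. Over all 81 members, Rplp1 included, the median of the difference, spleen minus thymus, was -0.13 beside -0.01 over all genes. Of these members 70 were negative, against 50.6% of all genes, and 10 had an unadjusted p under 0.05. Rpl10a had the next lowest adjusted p, at -0.23 ± 0.08 (adjusted p = 0.0573, edgeR). Rps15a had an adjusted p of 0.0624, with log2 fold changes of 0.06 ± 0.08 in thymic mice and -0.28 ± 0.06 in splenic mice.

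Levels in WT mice were compared between tissues in the same fit. Of 81 members, 59 (72.8%) were higher in splenic than in thymic WT Tregs and 2 (2.47%) were lower at FDR < 0.01, where 21% of all genes were higher and 19.5% lower (40.4% in either direction). The median log2 difference was 0.36 beside 0.01 over all genes. By the test for a change beyond 1.2-fold, 30 members were called, as were 4758 of all 18686 genes. Rpl12 led, from 717 ± 62.4 CPM in the thymus to 1295 ± 112 CPM in the spleen (log2 difference 0.85 ± 0.07), and Rps27 and Rps16 had 0.79 and 0.73. Rplp1 had 0.83, or 0.65 with the sharing rows added. Rpl6l, a pseudogene with 11 to 49 counts per library, had 0.83 ± 0.21. Rps27l (-0.38 ± 0.08, adjusted p = 0.00046) and Rpl13a (-0.33 ± 0.07, adjusted p = 0.000511, edgeR) were the members called lower. These differences varied more among the well-counted members than the splenic KO effects did, with an SD of 0.241 against 0.0805. Their median SE was 0.0695. Outside the members, the genes Rps6kb2 and Mrps23 were at 0 CPM in all splenic mice. In thymic WT mice they were at 8.62 to 10.6 and 9.27 to 13.3 CPM. The cause was not tested.

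Other genes of translation were read beside the members. The mitochondrial ribosomal proteins build the separate ribosome of the organelle. In thymic mice their median log2 fold change was -0.13, where 2 of 77 were lower (Mrpl12 at -0.44 and Mrpl19 at -0.32), and in splenic mice it was -0.01, where none of 76 was called by edgeR. There 6 were lower and 3 higher at an unadjusted p under 0.05, and DESeq2 called 1 in each direction. In the thymus 21 were lower and 1 higher at that unadjusted p, and DESeq2 called 6 lower and 0 higher. Elongation factors and other TOP mRNAs had medians of -0.19 and -0.09. In the thymus Eef1g, a subunit of elongation factor 1, and Vim, the intermediate filament vimentin, were called at -0.24 and -0.63, and in the spleen Eef1b2 was called at -0.31. Initiation factors had medians of -0.05 and 0.03, and Eif5a, Eif4a1 and Eif3i were lower in the thymus at -0.40, -0.32 and -0.26. None of the 24 was called in the spleen, where 5 were lower and 2 higher at an unadjusted p under 0.05 and DESeq2 called none. In the thymus 11 were lower and 0 higher at that unadjusted p, and DESeq2 called 9 lower and 0 higher.

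Larp1, which binds the TOP tract, was the only gene called among those of mTORC1 control, of which 13 were tested in the thymus and 12 in the spleen. It was at 292 to 316 CPM in WT and 170 to 251 CPM in KO mice of the thymus (log2 fold change -0.42 ± 0.09, adjusted p = 0.0085, edgeR), and at 315 to 347 and 252 to 270 CPM in the spleen (-0.33 ± 0.05, adjusted p = 0.00029). Among ribosomal proteins whose symbols the rule does not match, Rack1 was lower in the spleen at -0.29, and Rpl7l1, a nucleolar relative of Rpl7, was lower in the thymus at -0.44. Fau, which encodes ribosomal protein S30 fused to a ubiquitin-like peptide, had 0.00 ± 0.07 and -0.14 ± 0.07. None of the 6 tested chaperones and importers of ribosomal proteins was called in either tissue, with 2 and 1 lower at an unadjusted p under 0.05 and 1 and 0 called by DESeq2.

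**Figure D5:**
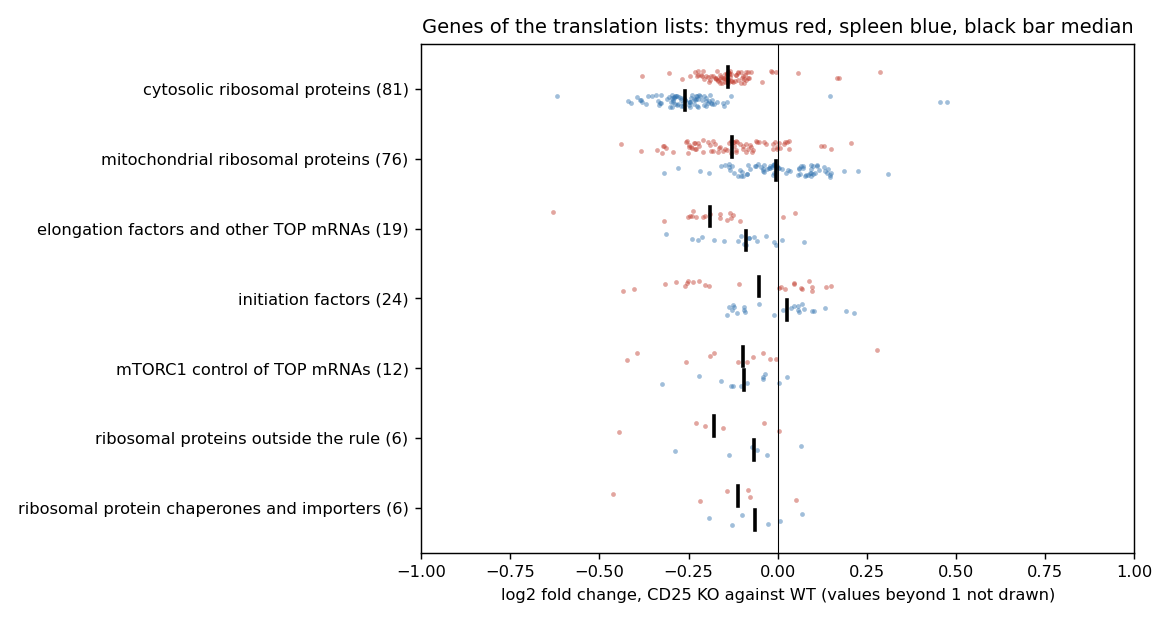
Log2 fold change of CD25 KO against WT (x axis) for the genes of each list tested in both tissues, with the number of genes in brackets, the thymus in red and the spleen in blue. Points are genes and black bars are medians. The medians of the cytosolic ribosomal proteins are -0.14 (thymus) and -0.26 (spleen), and those of the mitochondrial ribosomal proteins about -0.13 and -0.01.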

How the data were processed

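The authors aligned reads to GRCm38 with STAR 2.5.0b and counted them per gene with featureCounts 1.5.0 on GENCODE M13, and deposited raw counts, 1 column per mouse. The strand and multimapping settings of the counting are not given in the sources used here, so reads of near-identical copies may be divided unevenly, and 79 of the 83 members share at least one 75-base stretch with another gene. Symbols, lengths and positions came from GENCODE M21 of the same build (50376 of 50600 rows matched). Counts were scaled by TMM and tested with edgeR 4.0.16 (R 4.3.3) within each tissue, and in 1 fit of 18 mice for the difference and the WT comparison, after its filter on low counts, with Benjamini-Hochberg adjustment and FDR < 0.01. DESeq2 1.42.0 was an alternative. The scripts were tested on simulated counts. There, changes of 1.2-fold were called in 4% of thymic, 14% of splenic and 0% of difference cases. Changes of 2-fold were called in 98, 100 and 86%. Named members were up to 5 called per direction and comparison, the 5 highest and 5 lowest per length, 20 chosen for roles, duplicate copies, and members that failed the filter. From other lists, up to 3 called genes per direction were named. Rps15a in the comparison of tissues and the members beside the threshold were named after their values were seen. Members and lists were chosen with earlier results of these data known. Each sample is 1 mouse, and intervals cover counting error only. Some marker values and sequences are not reported here.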

Additional observations from a re-analysis of the deposited data

Results flagged for a closer look

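The CD25 KO effect on Rplp1 differed between the tissues by -0.48 (log2, spleen minus thymus) in the test of the difference itself, with every thymic KO mouse above every WT mouse. Loss of CD25 and mouse line cannot be told apart in the thymic part. Tissue, mouse model, age and tamoxifen also change together between thymus and spleen. The call was lost with sharing rows added (-0.29, adjusted p = 0.0659, edgeR), when the thymic groups overlapped, with length correction (-0.30, adjusted p = 0.15), and without splenic WT mouse 3, WT mouse 4 or KO mouse 3.

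Single mice stood apart from the rest of their group by Dixon's test in 6 of 148 groups of member values, where chance gives about 1 in 20. Thymic KO mouse 5 was high for Rpl35a at 176 CPM (143 to 146 in the others), for Rpl11 at 299.5 CPM (from 262 in the others) and for Rps3 at 630.3 CPM (576 to 590). Splenic KO mouse 3 was low for Rpl10a at 216 CPM (236 to 240) and for Rpl13a at 32.6 CPM (36.6 to 37.2). Thymic WT mouse 4 was high for Rpl39l at 1.28 CPM (0.382 to 0.539).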

How the results depend on the processing

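The counts of called members depended on the settings more than their direction did. In the thymus, against 1 called member, 20 were called at FDR < 0.05, 12 by DESeq2, 8 with all 18 mice in 1 fit, 4 without KO mice 2 and 4, 3 with length correction, 2 each with upper-quartile scaling, GC correction and both corrections, 0 beyond 1.2-fold, and 0 to 5 when 1 mouse was left out. In the spleen, against 31, 61 were called without a filter, 60 at FDR < 0.05, 57 with upper-quartile scaling, 50 by DESeq2, 15 with all mice in 1 fit, 0 beyond 1.2-fold, and 9 to 51 when 1 mouse was left out. Among all genes 1651 of 17463 were called, 2356 of 29694 without a filter, 3001 at FDR < 0.05 and 1689 with upper-quartile scaling. DESeq2 called 2118 of 29694 and the fit of all mice 795 of 18686. Beyond 1.2-fold it was 578, and with 1 mouse left out 1099 to 1723. For the difference, against 1, 2 were called with upper-quartile scaling, 2 without thymic KO mice 2 and 4, 0 beyond 1.2-fold, with length correction, with both corrections or with sharing rows added, and 0 to 1 when 1 mouse was left out. Of all genes 1305 of 18686 were called, 1285 with upper-quartile scaling, 2307 without thymic KO mice 2 and 4 and 500 beyond 1.2-fold. With length correction 1357 were called, with both 1417, with sharing rows added 1302, and with 1 mouse left out 817 to 1489. Between WT tissues 30 instead of 61 members passed 1.2-fold, and 4758 instead of 7557 of all genes. The splenic difference in share was -0.878 without Gm26917 and -0.882 also without mitochondrial and rRNA rows, against -0.611, and the thymic one -0.362 and -0.364, against -0.219. The causes were not tested.

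With the replicate number as a block, 0 members were called in the thymus, and 209 instead of 1047 genes. Same-numbered mice correlated at -0.24 to 0.144, so the numbers do not pair them. No paired analysis was possible in the spleen because its numbers only follow the order of the samples.

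Some uncalled thymic log2 fold changes changed sign. With GC correction Rpl11 was 0.00199, Rpl24 0.00394, Rpl32l 0.0737, Rplp0 0.0154, Rps14 0.0332, Rps15 0.0169 and Rps15a -0.00313. With both corrections Rpl11 was 0.0184, Rpl32l 0.00345, Rplp0 0.0179 and Rps14 0.0452. With upper-quartile scaling Rpl24 was 0.0165, Rpl32l 0.0183 and Rps27l 0.0308, and with RLE scaling Rps27l was 0.000839. With sharing rows added Rpl24 was 0.0471 and Rps27l 0.000377. Rps4l was -0.124 without KO mice 2 and 4. Leaving out 1 mouse gave -0.069 to 0.0166 for Rpl24, -0.236 to 0.115 for Rpl32l, -0.198 to 0.00785 for Rpl6l, -0.019 to 0.101 for Rps15a, -0.0249 to 0.0289 for Rps27l and -0.0217 to 0.436 for Rps4l.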
